A study of Mus musculus with 4 samples.

Results

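Kinesins are motor proteins that use ATP to move along microtubules or to take them apart, and they fall into families with separate jobs. One group builds the spindle, moves the chromosomes and closes the cell at division, and its genes are switched on together late in the cell cycle. The other kinesins carry vesicles, mitochondria, endosomes, ciliary parts and RNA, and in pigment cells microtubule motors carry melanosomes toward the cell edge before the actin motor myosin Va takes them over. The set described here holds the mouse kinesin heavy chain genes with a Kif symbol except Kif13a, the minus-end motor gene Kifc1 and the kinesin light chains Klc1 and Klc4. It counts 39 of the 18193 genes that the arrays represent by a probe set with a single gene symbol, namely 12 mitotic kinesins and 27 other members, read by 100 probe sets. Klc2 belongs to the same rule and was not analysed here.

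RNA was measured on 4 Affymetrix mouse 430_2 arrays. The 2 non-pigmented arrays carry RNA of Balb/c skin melanocytes that are homozygous for a point mutation in the tyrosinase gene, whose enzyme starts melanin synthesis. The 2 pigmented arrays carry RNA of skin melanocytes in which that point mutation was corrected and which are labelled wild type. Both lines grew in RPMI with FCS, 2-mercaptoethanol and the phorbol ester TPA at 10% CO2, so no array shows cells without TPA. The labels do not say how many clones or separate cultures stand behind the 2 arrays of a line, and replicate numbers follow the order of deposit. With only the line in the model, p-values therefore rest on the spread between 2 arrays of a line, which may be technical.

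The control probe sets divide the arrays a second way. The Gapdh 3′ to 5′ ratio, which rises when RNA is broken or its 5′ end is copied poorly, stood at 0.903 and 0.864 on replicate 1 of the non-pigmented and of the pigmented line. On replicate 2 it stood at 20.2 and 16.8. The Actb ratio divided the arrays the same way, at 1.21 and 1.33 against 9.96 and 12.2. The arrays with low ratios are called intact below and the others low 5′. Each line has 1 array of either kind, and the titles pair the arrays in yet another way by 2 dates. Line, RNA integrity and date can thus each be compared across all 4 arrays. On these arrays a date difference is the same contrast as a low 5′ difference that is unlike in the 2 lines. The 2 cannot be told apart. With RNA integrity in the model beside the line, the spread left for a p-value is that along the date. With the date in the model it is that along RNA integrity. Tyr itself gave a signal of 213.8 and 67.2 on the non-pigmented and 17306 and 11698 on the pigmented arrays, a difference of 6.69 ± 0.60 on the log2 scale (limma adjusted p 0.0062). Of 10 melanocyte markers, Tyr among them, 9 were above the filter signal of 70.7 on either non-pigmented array and all 10 on either pigmented array, with a summed signal of 15611, 26827, 141095 and 129555 on non-pigmented replicates 1 and 2 and pigmented replicates 1 and 2. Among markers of other cells the 5 Schwann cell genes on the array summed to 20356 and 23659 on the non-pigmented and 2250 and 3278 on the pigmented arrays, and 4, 4, 6 and 4 of 8 neuron genes were above the filter signal in the same array order. Of 7 keratinocyte, 6 fibroblast, 5 immune and 4 endothelial markers on the array, at most 4, 4, 2 and 2 passed that signal on any array. Their part in the results was not tested.

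The promoters of the mitotic kinesins are shown first, since they hold a motif of late cell cycle genes. Late cell cycle genes often carry the cell cycle genes homology region, TTTGAA, read by LIN54 in MuvB complexes, near a CCAAT box, read by NF-Y. RefSeq promoter windows of GRCm38.p6, from 250 bases before to 50 bases after the start, were searched for both motifs on both strands. TTTGAA stood in 10 of 11 mitotic kinesin windows (90.9%), in 3 of 26 windows of the other members (11.5%) and in 5878 of 32851 windows of all genes (17.9%). CCAAT stood in 7 of 11 (63.6%), 10 of 26 (38.5%) and 37.4%, and both motifs stood together in 63.6%, 7.69% and 6.95%. The mitotic window without TTTGAA is that of Kif18a. No match overlapped a match of the other motif, and a match is a description of these letters, not a measured binding site. The stretches below show TTTGAA at 3 promoters just upstream of the start and at 3 start sites, 5′ to 3′ on the gene's strand. Those of Kif11, Kif22 and Kif23 also hold CCAAT, and each motif is in capitals (TTCAAA and ATTGG are the same motifs on the opposite strand):
Kif11, chr19:37376322-37376381, plus strand: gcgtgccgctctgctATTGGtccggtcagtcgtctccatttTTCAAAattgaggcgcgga
Kif22, chr7:127042421-127042480, minus strand: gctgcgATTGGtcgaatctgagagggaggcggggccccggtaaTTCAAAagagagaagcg
Kif15, chr9:122951021-122951080, plus strand: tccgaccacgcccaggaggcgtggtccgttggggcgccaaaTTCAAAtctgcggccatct
Kifc1, chr17:33890615-33890644, minus strand: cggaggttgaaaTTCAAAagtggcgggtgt
Kif23, chr9:61946780-61946809, minus strand: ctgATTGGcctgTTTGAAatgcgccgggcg
Kif20b, chr19:34922353-34922382, plus strand: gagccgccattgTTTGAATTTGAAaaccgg
In Kif11 and Kif15 the TTCAAA lies at the same place, from base -19 to base -14 before the start, and in Kif22 from -17 to -12. In Kif11 and Kif22 an ATTGG lies farther upstream, from -45 to -41 and from -54 to -50. Kif20b carries TTTGAA in tandem, from base 8 to 13 and from 14 to 19 after the start.

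The first question of the design was whether pigmented and non-pigmented melanocytes differ in these motors. No kinesin gene passed the test between the lines. With limma on log2(signal + 16), 422 of 12558 genes tested were called at an adjusted p under 0.05, or 3.36%, and none of the 30 members bright enough to be tested was among them. At an unadjusted p under 0.05 the count was 0 of 10 mitotic kinesins and 1 of 20 other members, Kif26b, against 1735 of 12558 genes. With the date as a block the share called was 3.12% of genes and with RNA integrity as a block 7.04%, and the members called stayed at 0 in both. All differences and folds below are on the log2(signal + 16) scale, which understates the change of dim genes, and those between lines are pigmented minus non-pigmented.

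The mitotic kinesins differed between the arrays of a line, with high signals on the intact and low signals on the low 5′ arrays. The summed signal of the 10 tested was 16106 and 13643 on the intact arrays of the non-pigmented and pigmented line. On the low 5′ arrays it was 9019, of which 4857 came from the brightest probe set of Kif22, and 1499. The median signal of the 10 was 1370 and 997 on the intact arrays against 302 and 122 on the low 5′ arrays. Their mean log2 level relative to each gene's own mean was 1.34 and 1.04 on the intact arrays, -0.30 on non-pigmented replicate 2 and -2.07 on pigmented replicate 2. The other members stood at -0.17, 0.02, -0.15 and 0.30 in the same order, so the mitotic minus other level was 1.51, 1.02, -0.16 and -2.37. Pigmented replicate 2 was the lowest array for 10 of 10 tested mitotic kinesins, against 3344 of 12558 genes tested. Non-pigmented replicate 1 was the highest for 9 of 10 mitotic kinesins, against 2634 of 12558 genes. In RNA of whole cultures, fewer dividing cells and less of these RNAs per cell cannot be told apart, and the part of RNA integrity in the result was not tested.

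**Figure D1:**
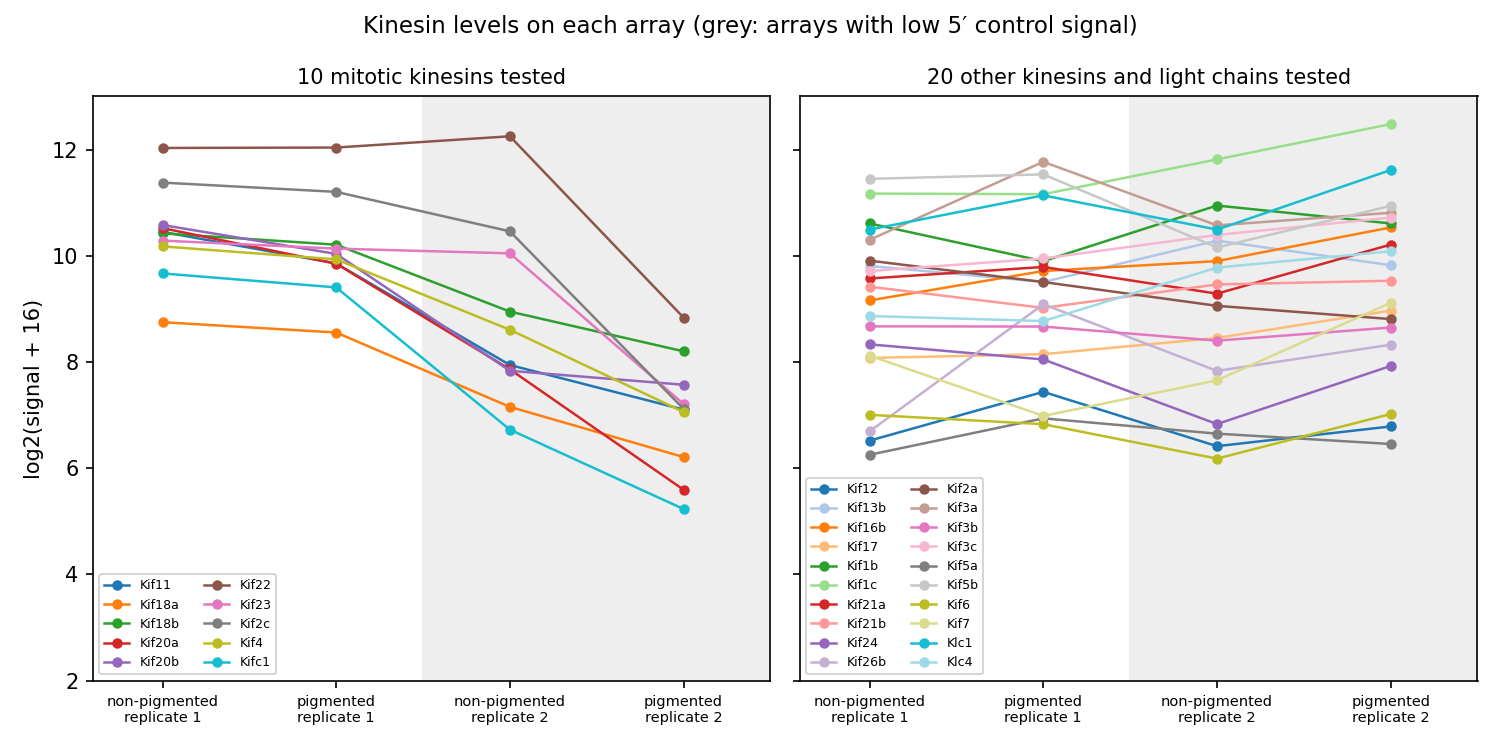
Level of each tested kinesin gene, log2(signal + 16), on each of the 4 arrays, with the 10 mitotic kinesins on the left and the 20 other members on the right; lines only join the points of a gene, and grey marks the arrays with low 5′ control signal. The mitotic kinesins lie lowest on pigmented replicate 2 (10 of 10, against 3344 of 12558 genes tested). Of the 20 other members, 4 have both low 5′ arrays below both intact arrays and 8 have both above.

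At the poles of the spindle, Kif11, the bipolar motor that pushes the poles apart, gave signals of 1383 and 230 on non-pigmented replicates 1 and 2 and 910.4 and 121 on pigmented replicates 1 and 2. Both intact arrays were above both low 5′ arrays, and the lines overlapped. The low 5′ arrays were 6.19-fold lower, a log2 difference of -2.63 ± 0.32 (SE from limma with the line in the model, 4 arrays), with an adjusted p of 0.089. The same difference had an adjusted p of 0.008 after centring each array on its median and 0.022 after quantile normalization. Kifc1, a minus-end motor that crosslinks and focuses spindle microtubules, had the largest difference among the brightest probe sets of the members. Its signals were 797, 89.8, 662 and 21.5 in the same order of arrays, and the low 5′ arrays were 11.8-fold lower (log2 -3.56 ± 0.45, limma adjusted p 0.089). The signal on pigmented replicate 2 is below the filter signal of 70.7, as are those of Kif18a (58.0) and Kif20a (32.3) on that array. The mean log2 level of Kifc1 on the low 5′ arrays, 5.98, is under the filter of 6.44. Kifc1 thus passed the filter through the intact arrays, and its fold rests on a dim value. Its probe set can share sequence with the near copy Kifc5b, so the 2 genes are not separated with certainty. Kif15, which backs up Kif11 in holding the spindle open, was dim at 17.5, 32.7, 155 and 81.6, was left out of the test, and did not follow the others, with its highest signal on pigmented replicate 1.

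Of the chromosome arm motors, Kif4, which acts in chromosome condensation and on the central spindle with Prc1, gave 1141, 374, 961 and 117. Its low 5′ arrays were 4.67-fold lower (log2 -2.22 ± 0.42, limma adjusted p 0.090). Kif22, which pushes chromosome arms away from the poles, was the exception among the tested genes. The probe set chosen for it as its brightest gave 4168, 4857, 4191 and 441, so only pigmented replicate 2 was low, and the low 5′ difference of -1.49 ± 0.78 had a limma adjusted p of 0.327. The other probe sets of Kif22 gave 665, 27.0, 497 and 4.8 (1423813_at) and 2213, 411, 1440.5 and 29.96 (1451128_s_at), low on both low 5′ arrays. Their low 5′ differences were -4.30 and -3.68 against -1.49. The mean log2 level of 1423813_at on the low 5′ arrays, 4.90, is under the filter of 6.44. That probe set passed the filter through the intact arrays, and its difference rests on dim values.

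The kinesins that shorten microtubules or hold their plus ends in check had the same order of arrays. Kif18a, which damps the swings of chromosomes at the metaphase plate, gave 414, 126, 360.0 and 58.0, a 3.92-fold difference between low 5′ and intact arrays (log2 -1.97 ± 0.40, limma adjusted p 0.095). Kif18b, its relative at the ends of astral microtubules, gave 1356, 478, 1168 and 278, or 3.34-fold (log2 -1.74 ± 0.32, limma adjusted p 0.089). Kif2c, the depolymerase at kinetochores, gave 2646, 1393, 2343 and 123, or 5.67-fold (log2 -2.50 ± 0.75, limma adjusted p 0.148). Both low 5′ arrays were below both intact arrays for all 3 genes. The probe sets of Kif2c differed. Probe set 1449060_at read 1258, 142, 1254 and 66.5, low on both low 5′ arrays, while 1432392_at read 202, 45.8, 115 and 124, with no drop in the pigmented line (0.10).

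At the midzone, Kif20a, which brings the chromosomal passenger complex to the central spindle, gave 1453, 217, 908 and 32.3. Its low 5′ arrays were 10.99-fold lower (log2 -3.46 ± 0.47, limma adjusted p 0.089). Kif20b, needed for the last steps of cytokinesis, gave 1514, 212, 1033 and 174, or 6.08-fold (log2 -2.60 ± 0.31, limma adjusted p 0.089). For these 2 genes and Kif11, Kifc1, Kif4, Kif18a and Kif18b the low 5′ difference was -1.47 or lower within either line. Kif23, which forms the centralspindlin complex with Racgap1, gave 1233, 1041, 1108 and 132, so that almost all of its difference of -1.58 ± 0.66 (limma adjusted p 0.239) came from pigmented replicate 2. Within the non-pigmented line the low 5′ difference was -0.24 for this probe set of Kif23, its brightest, and -2.66 for Kif20a. Other probe sets of Kif23 were under the filter. Of these, 1453748_a_at gave 253, 7.1, 128 and 9.4, low on both low 5′ arrays (-3.54 and -2.51 within the lines). Probe set 1450827_at gave 72.9, 10.7, 20.8 and 26.9, with no drop in the pigmented line. The pattern of the brightest probe set is thus not that of the whole gene. Kif14, which acts in cytokinesis with citron kinase, was dim at 87.5, 5.1, 7.9 and 5.5 and was not tested.

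Counted over the set, both low 5′ arrays lay below both intact arrays for 9 of 10 mitotic kinesins and 4 of 20 other members, against 21.1% of all genes tested. They lay above both intact arrays for 0 of 10 and 8 of 20, against 2663 of 12558 genes tested. The 8 are Kif1b, Kif1c, Kif13b, Kif16b, Kif17, Kif3c, Kif21b and Klc4, each at its brightest probe set. Over the 53 tested probe sets of the other members, 10 had that order, which is not above the share of all genes. The higher share of 8 of 20 thus holds at the brightest probe sets only. The share of all probe sets with that order was not counted. The median low 5′ difference was -2.36 for the mitotic kinesins, 0.21 for the other members and 0.03 for all genes. With the scaling as deposited, 0% of genes, and 0 members, were called between low 5′ and intact arrays, although 2789 genes, and 8 of 10 mitotic kinesins, had an unadjusted p under 0.05 in limma. With arrays centred on their medians, 3.61% of genes were called lower on the low 5′ arrays, among them 8 of 10 mitotic kinesins and 0 of 20 other members, and 4.73% were called higher, with no member among them. With quantile normalization the share was 3.18%, with 7 of 10 and 0 of 20. The call thus depends on how the arrays are scaled, and the direction did not under any scaling tried. Of the spread of a gene over the 4 arrays, a median of 85.2% lay along RNA integrity for the mitotic kinesins (27.6% to 97.4%), 47.6% for the other members and 34.2% for all genes. Between the dates 0% of genes, and no member, were called by limma, and 78 genes but no mitotic kinesin had an unadjusted p under 0.05.

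Of the 17 tested probe sets of the mitotic kinesins, the low 5′ difference was below 0 for 17, and 15 had both low 5′ arrays below both intact arrays. Of the 53 tested probe sets of the other members, 30 were below 0 and 17 had both low 5′ arrays lowest. Over all 27022 probe sets tested the shares were 48.8% and 22.8%. With dim probe sets included, the counts were 25 and 19 of 25 for the mitotic kinesins and 47 and 26 of 75 for the other members. The spread inside a gene could be large. One probe set of Klc1, 1448541_at, read 245, 6.4, 461 and 36.1, a low 5′ difference of -3.37, while the other 2 probe sets of Klc1 had differences of 0.05 and 0.24. Both low 5′ signals of 1448541_at are under the filter signal of 70.7, so its difference rests on dim values. The counts of tested probe sets include this one and 1423813_at of Kif22, which passed the filter through the intact arrays.

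Between the lines, the mitotic kinesins had negative differences that depend on which arrays are kept. With the brightest probe set of each gene all 10 were below 0, from -1.76 for Kif2c to -0.40 for Kif20b, with a median of -0.89 against 0.07 for all genes. The other 3 probe sets of Kif2c had line differences of -0.47, 0.23 and 0.58, and the mean of its probe sets gave -0.36. The limma adjusted p of the 10 genes lay between 0.541 and 0.922, and both pigmented arrays were below both non-pigmented arrays for 0 of 10, against 19.5% of all genes. On the intact arrays alone the differences ran from -0.67 to 0.01 with a median of -0.23. On the low 5′ arrays alone they ran from -3.41 to -0.26 with a median of -1.52. Without pigmented replicate 2 the median turned to 0.57, without non-pigmented replicate 1 it was 0.06, without non-pigmented replicate 2 it was -1.73 and without pigmented replicate 1 it was -2.65. Without pigmented replicate 1, which leaves pigmented replicate 2 alone for its line, limma called 772 genes in both directions, and those called lower were 4.02% of the genes tested. The kinesins among them were Kif2c (-3.80), Kif22 (-3.30), Kif23 (-2.96) and Kif20a (-3.60). That fit sets a low 5′ array against an intact and a low 5′ one. The values of Kif2c, Kif22 and Kif23 are those of their brightest probe sets. Other probe sets of these genes were low on non-pigmented replicate 2 as well, such as 1449060_at (142), 1451128_s_at (411) and 1453748_a_at (7.1). The differences are thus not those of the whole genes. No other array left out gave a call among the members.

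**Figure D2:**
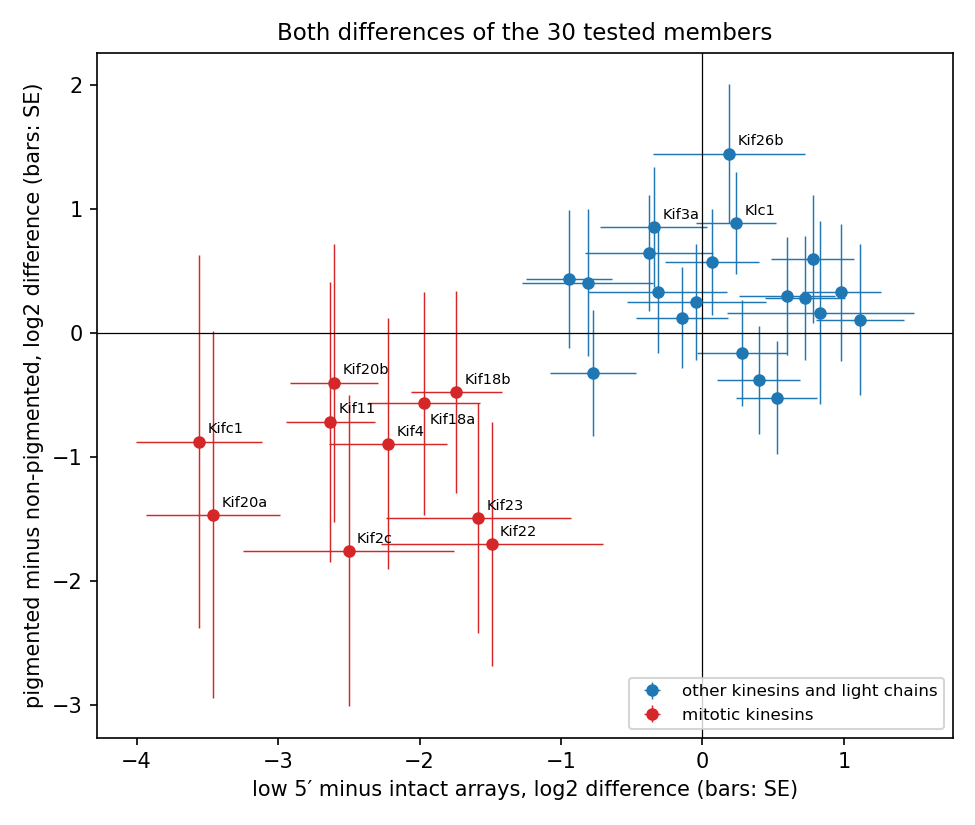
Log2 difference between low 5′ and intact arrays (horizontal) and between pigmented and non-pigmented arrays (vertical) for the 30 tested members, with bars of 1 SE from limma. The 10 mitotic kinesins lie left of 0, from -3.56 to -1.49, while their bars between the lines are wide and the other 20 members lie around 0.

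The partners of the mitotic kinesins followed the same order of arrays. Of 31 tested spindle, checkpoint and cyclin genes, 30 had both low 5′ arrays below both intact arrays, with a median difference of -2.85. None was called as deposited, and 25 of the 31 were called lower after median centring. Plk1, a kinase of many mitotic steps, gave 3692, 241, 3464 and 56.2 (log2 -4.72 ± 0.48, limma adjusted p 0.089). Cdk1, the kinase that drives entry into mitosis, gave 8647, 1363, 6738 and 424 (log2 -3.30 ± 0.38, limma adjusted p 0.089), and Mad2l1, Ccna2 and Aurkb had differences of -2.87, -2.89 and -2.85. Both low 5′ arrays were far below both intact arrays for Plk1 and Cdk1 in either line. The exception was Numa1, which organises spindle poles, at 1789, 2284, 1797 and 3704.

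Replication genes showed the same order with smaller differences. Of 24 tested, 21 had both low 5′ arrays lowest, with a median difference of -1.67, and 14 were called lower after median centring. Pcna, the sliding clamp of DNA polymerase, gave 10286, 2744, 11042 and 2366 (log2 -2.06 ± 0.22, limma adjusted p 0.089), so the lines stood close together on either kind of array. Fen1, which trims Okazaki fragments, went the other way at 2469, 3344, 3231 and 7363. Between the lines 0 of the 31 mitotic partners and 0 of the 24 replication genes were called by limma. An unadjusted p under 0.05 was found for 0 and 1 of them, against 1735 of 12558 genes tested.

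Partners of transport kinesins showed no such order. Of 18 tested adaptors and scaffolds, 5 had both low 5′ arrays lowest, the median difference was 0.30, and 1 was called lower after median centring. That gene was Mapk8ip1, a scaffold that links kinesin light chains to cargo, at 545.6, 77.1, 1103 and 102. Of 18 genes of cytoplasmic dynein and dynactin, the motor of the opposite direction and its activator, 9 had both low 5′ arrays lowest, with a median of -0.19. Set against the 21.1% of all genes with that order, 5 of 18 is near the background and 9 of 18 above it. After median centring, Dctn6 was called higher, as were 4.73% of all genes, and 1 gene lower, Pafah1b1. The dynein light chain gene Dynlt3 was higher in the pigmented line, from 64.4 and 41.6 to 3648 and 8669. The difference was 6.37 ± 0.55 with a limma adjusted p of 0.0062. Both non-pigmented signals are under the filter signal of 70.7. Dynlt3 thus passed the filter through the pigmented arrays, and its difference rests on dim values. It was the 1 gene called between the lines in the 4 partner lists.

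**Figure D3:**
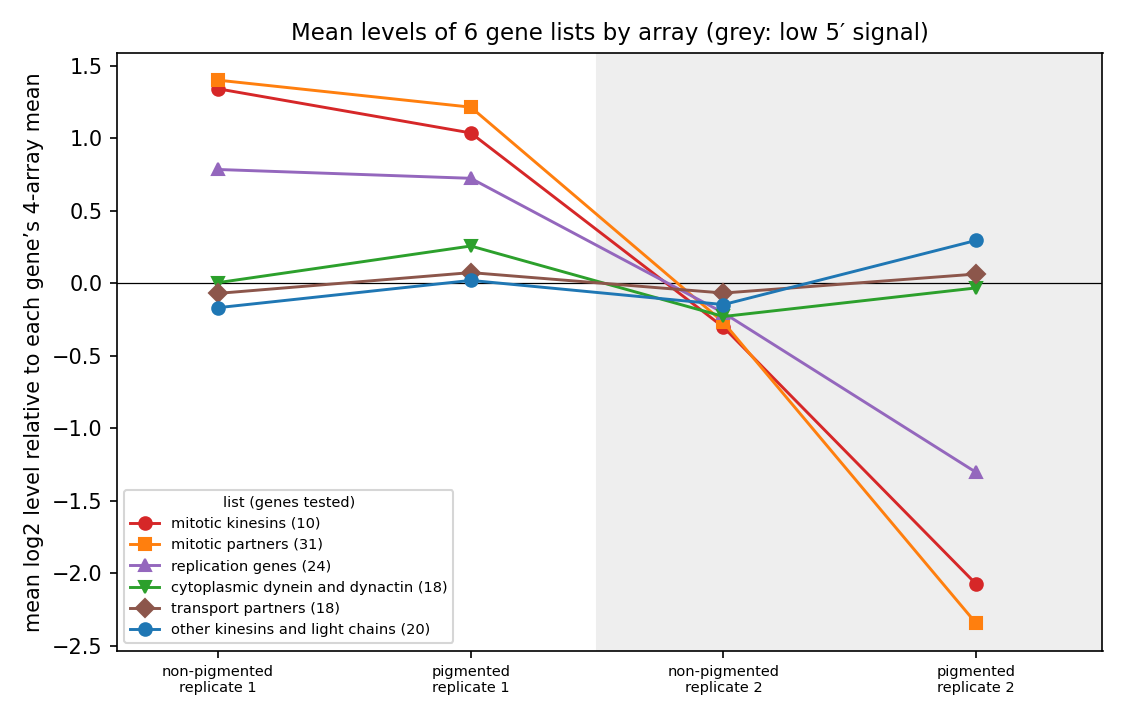
Mean log2 level of 6 gene lists on each array, relative to each gene's mean over the 4 arrays; grey marks the arrays with low 5′ control signal, and the number of genes is in the legend. The mitotic kinesins (1.34, 1.04, -0.30, -2.07 from left to right), mitotic partners and replication genes are lower on the low 5′ arrays. The other kinesins and light chains, the transport partners and dynein stay within 0.30 of their mean.

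Among the other 20 tested members the line differences ran from -0.52 to 1.44 with a median of 0.31, against 0.07 for all genes. After centring arrays on their medians that median was 0.07 and that of all genes -0.18. Both pigmented arrays were above both non-pigmented arrays for 5 of 20, against 24.4% of all genes, and both below for 0 of 20. These 5 were Kif26b, Klc1, Kif3a, Kif12 and Kif21a.

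Kinesin-1, the main motor for vesicles and mitochondria, is built from a heavy chain pair and light chains that hold cargo. The heavy chain gene Kif5b gave 2779, 1126, 2948 and 1949, a line difference of 0.43 ± 0.56 (limma adjusted p 0.819). Both low 5′ arrays were below both intact arrays. Kif5a, a neuron-rich heavy chain, was dim at 60.2, 84.4, 107 and 71.7, with a line difference of 0.25. Kif5c, also neuron-rich, was below the filter at 88.6, 144, 11.98 and 40.3, higher on both non-pigmented arrays. The 8 neuron markers summed to 2957, 3135, 1517 and 985 on the same arrays, and their part in this was not tested. Fitted without the filter its difference was -1.70 with a limma adjusted p of 0.32. The light chain gene Klc1 gave 1426, 1425, 2238 and 3121, higher on both pigmented arrays by 0.88 ± 0.41 (limma adjusted p 0.435). Its other probe sets did not separate the lines. Of these, 1417005_at gave 994, 1172, 1197 and 1090, a line difference of 0.08, and 1448541_at had a line difference of 1.04. Klc4 had the order of arrays opposite to the mitotic kinesins, at 450.4, 862, 421 and 1070, a low 5′ difference of 1.11 ± 0.31 (limma adjusted p 0.138). Its other probe set, 1425547_a_at, was under the filter at 26.4, 12.3, 74.6 and 43.0. It was lower on the low 5′ array within either line (-0.58 and -0.62), so the order is not shared by the whole gene.

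The probe sets of Kif5b disagreed. The 6 tested had line differences from -2.92 to 1.73, and 1418429_at gave 2531, 1442, 483 and 114, lower on both pigmented arrays, while 1453524_at and 1418428_at were higher on both. In a fit of all 27022 probe sets, added after the data were seen, limma called 1.49% of probe sets between the lines and none of the members' 70. With RNA integrity as a block it called 4.64%, and 4 of the members' 70, a share near that of all probe sets. Kif5b 1418429_at was 1 of these 4 (limma adjusted p 0.021). The gene level value of Kif5b is therefore that of 1 probe set and not of the gene as a whole.

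The other 3 probe sets called in that fit were all of Kif3a. Kif3a pairs with Kif3b and the adaptor Kifap3 in kinesin-2, which drives transport in cilia and moves organelles, pigment granules among them. Probe set 1455652_at gave 194, 186, 1298 and 735, a line difference of 2.27 (limma adjusted p 0.036 with RNA integrity as a block, 0.131 without it). Probe set 1420375_at gave 746, 652, 2729 and 2015, and 1436560_at gave 249, 296, 1019 and 1078, with limma adjusted p of 0.039 and 0.043 under the block. The probe set chosen for the gene as its brightest, 1449841_at, gave 1246, 1507, 3475 and 1780, a difference of 0.85 ± 0.48 (limma adjusted p 0.526). All 4 probe sets of Kif3a were higher on both pigmented arrays, by 0.85 to 2.27, but with the date as a block none was called. Kif3b gave 391.6, 322, 390.5 and 385 (0.12 ± 0.41, limma adjusted p 0.937), and Kifap3 gave 2160, 3081, 1497 and 2003 (-0.57 ± 0.43, limma adjusted p 0.661). The other kinesin-2 genes, Kif3c and the ciliary motor Kif17, had differences of 0.28 and 0.29. The other tested probe set of Kif17, 1419827_s_at, gave 196, 161, 189 and 5.7, a line difference of -1.54, with only pigmented replicate 2 low.

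**Figure D4:**
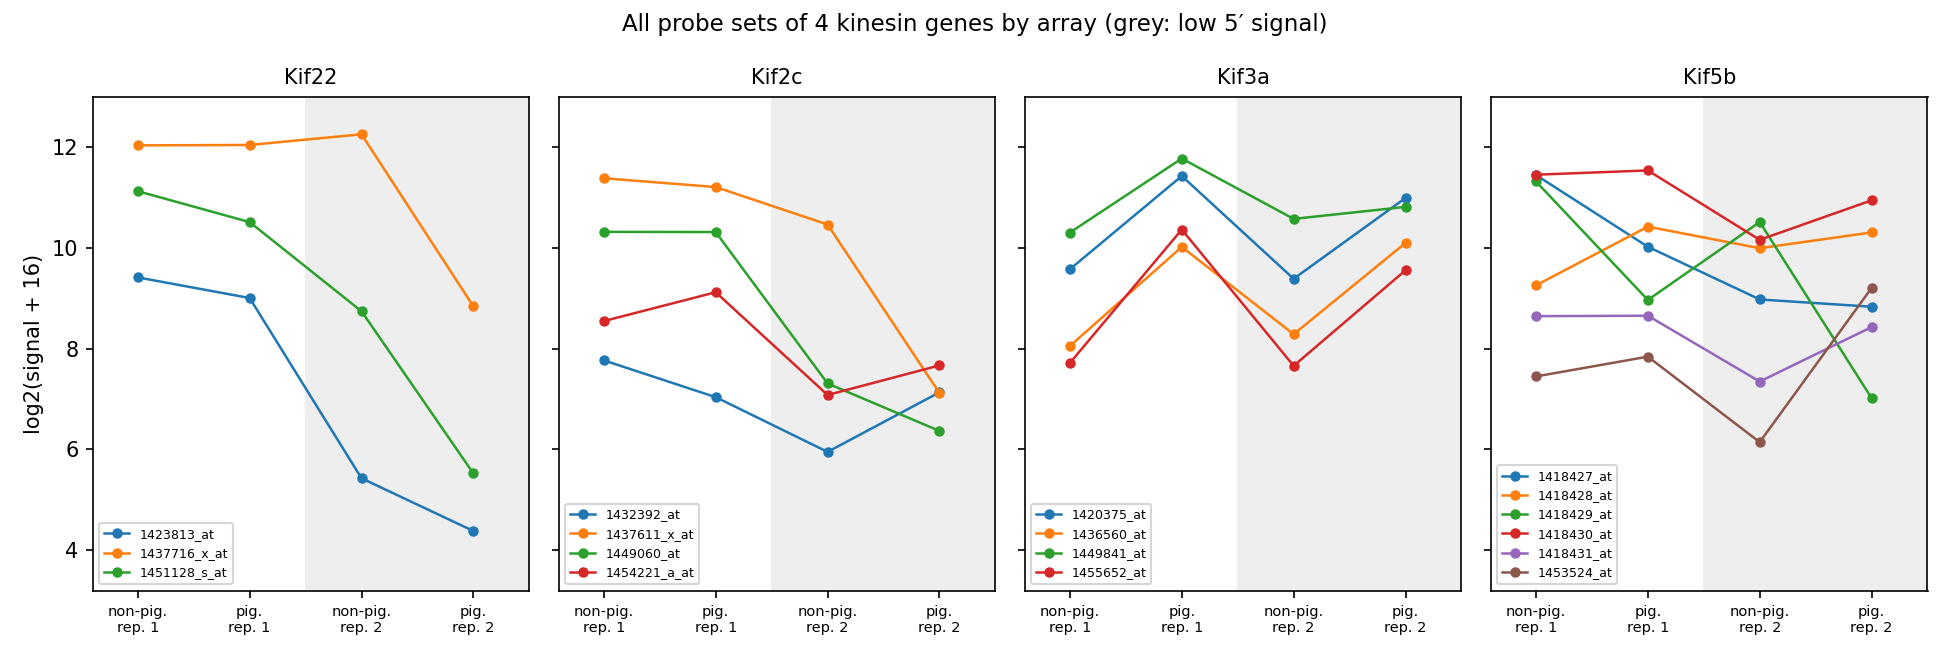
Level of every probe set of Kif22, Kif2c, Kif3a and Kif5b, log2(signal + 16), on each array, with grey for the arrays with low 5′ control signal; lines only join the points of a probe set. The 4 probe sets of Kif3a are all higher on the pigmented arrays of either kind, while those of Kif5b run in opposite directions and 1437716_x_at of Kif22 is low on pigmented replicate 2 alone.

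The kinesin-3 motors carry vesicles and endosomes. Kif1b had the lowest line difference of the other members. It gave 1546, 1958, 938 and 1546 (-0.52 ± 0.46, limma adjusted p 0.721), with no separation of the lines. Of its 7 probe sets, 2 were lower on both pigmented arrays, 1455182_at at 1200.1, 727, 587 and 304 (-1.11) and 1451762_a_at at 205, 223, 112 and 166 (-0.59), and none was called. Kif13b had a difference of -0.38, with 0.76 at another of its probe sets, and Kif16b, a motor of early endosomes, of 0.59. Kif1c gave 2290, 3588, 2273 and 5697, higher on both low 5′ arrays by 0.98 ± 0.28 (limma adjusted p 0.140), the same order as Klc4. Another probe set of Kif1c, 1424747_at, gave 179, 80.0, 291 and 108, lower on both low 5′ arrays by -1.16, so the order is not shared by the whole gene. Kif1a, a motor of synaptic vesicle precursors, was below the filter at 77.8, 38.8, 25.9 and 14.3, and its difference without the filter was -1.01 (limma adjusted p 0.55).

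In the remaining families no difference between the lines passed the test. Kif21a and Kif21b, kinesin-4 motors that regulate microtubule growth, had 0.57 and -0.17, and Kif7, a regulator of Hedgehog signalling in cilia, had 0.16. The depolymerases Kif2a and Kif24 had -0.33 and 0.40, and both were lower on both low 5′ arrays, by -0.77 and -0.81. Over their tested probe sets the low 5′ difference ran from -1.69 to 0.56 for Kif2a and from -0.81 to 0.09 for Kif24, against -3.48 to -0.86 for their mitotic relative Kif2c. Kif26b, an atypical kinesin, had the largest difference of the other members. It gave 87.4, 212, 528 and 305, higher on both pigmented arrays by 1.44 ± 0.56 (limma unadjusted p 0.041, adjusted p 0.326). Kif12 had 0.65. Besides Kif5c and Kif1a, the 5 members Kif26a, Kif27, Kif28, Kif2b and Kif9 were too dim to test, with signals from 2.95 to 91.8.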

How the data were processed

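The deposited values are probe set intensities, 1 column per array, made by the authors with Affymetrix Expression Console, per the submitters' processing notes. Its version and the summary algorithm are not given in the sources used here. The mean of each column after trimming 2% at either end was 500.0, and no detection column was used here, so dim probe sets could not be separated from background. Genes were named from the platform annotation (34945 of 45101 probe sets with 1 symbol), by the probe set of highest mean. Genes under the 40th percentile of mean log2 value (6.44) were left out. limma 3.58.1 in R 4.3.3 (lmFit, eBayes with trend) was run on log2(signal + 16), with Benjamini-Hochberg adjustment over 12558 genes. The comparisons of RNA integrity (Gapdh 3′ to 5′ ratio above 3) and date had the line in the model. With 2 against 2 arrays the smallest exact permutation p is 0.333, and the number of arrays limits the precision. The code was tested on simulated data. Members and lists were chosen with earlier results of these data known. Genes named were the mitotic kinesins, called members, the 6 highest and 6 lowest other line differences, kinesin-1 chains, and list members that were called or had the smallest p. Other genes named (such as Numa1, Fen1, Kif1c and Kif17) and the probe sets of Klc1 were chosen after their values were seen. Figures used matplotlib 3.10.9 in Python 3.11.15.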

Additional observations from a re-analysis of the deposited data

How the results depend on the processing

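Genes called between the lines numbered 422, 884 with RNA integrity as a block and 234 to 772 with 1 array left out. Kinesins called numbered 0, and 0 to 4 with 1 array left out. Mitotic kinesins called between low 5′ and intact arrays numbered 0 as deposited, 7 with quantile normalization, 8 with centring on the median, 1 with a pseudocount of 64 and 2 with the mean of probe sets. The median difference of the other kinesins was 0.31, and 0.066 with centring on the median. Of 375 alternative values for single members between the lines, 342 kept direction and side of the threshold, 4 passed the threshold and 29 changed sign, none of the 29 called. With the mean of probe sets these were Kif13b 0.37, Kif2a 0.17, Kif21b 0.017, Kif3b -0.23 and Kif5b -0.044; with median centring Klc4 -0.14 and Kif3b -0.12; with quantile normalization Kif3b -0.011; and with unique probe sets Kif5a -0.29. With 1 array left out the difference ran from -2.09 to 0.66 for Kif11, -2.97 to 1.21 for Kifc1, -2.33 to 0.54 for Kif4, -1.74 to 0.60 for Kif18a, -1.49 to 0.52 for Kif18b, -3.80 to 0.28 for Kif2c, -3.60 to 0.66 for Kif20a, -1.78 to 0.97 for Kif20b, -0.75 to 0.10 for Kif2a, -0.42 to 0.091 for Kif21b, -0.55 to 0.76 for Klc4, -0.013 to 0.26 for Kif3b and -0.21 to 1.08 for Kif5b. The causes were not tested. With an array left out, the lone array of a line was assumed to vary like the other line. Depth does not apply to arrays, and without a detection value the dim genes carry no bound.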
